A study of Rattus norvegicus with 20 samples.

Results

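The S100 genes encode small calcium-binding proteins, and 9 of them were followed in inguinal white adipose tissue (iWAT), a subcutaneous fat depot, of ZSF1 rats. The members, S100a1, S100a4, S100a6, S100a8, S100a9, S100a10, S100a11, S100a13 and S100b, were taken by gene symbol from a table of 32545 genes. All 9 were found and all 9 had reads in enough libraries to enter the test, which was run on 17653 genes. The data are RNA sequencing counts of 20 libraries, 1 per animal, with 5 animals in each of 4 groups.

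All animals were male adult ZSF1 rats kept on a high carbohydrate Purina chow. Cmpd 1 animals were obese rats whose chow was mixed with Cmpd 1, a small molecule inhibitor of the kinases PKCα and PKCβ, for several weeks. Food matched animals were obese rats given drug-free chow in the amount that the Cmpd 1 animals had eaten in the week before, Obese animals were obese rats fed freely on the same chow, and Lean animals were fed freely in the same way. Obese rats carry a mutated leptin receptor gene on both chromosomes (the fa and cp alleles of Lepr), which makes them overeat, and the Lean rats are not homozygous for the deficiency. The model therefore lacks leptin signaling in the Cmpd 1, Food matched and Obese groups alike, in all tissues.

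S100 proteins pair up as dimers, bind calcium through EF-hand loops and then attach to other proteins. Inside cells they act on the cytoskeleton, on membranes and on calcium handling, and several are released and bind receptors such as RAGE (gene Ager) and TLR4. S100b is best known from glia and is also made by adipocytes, while the S100a8 and S100a9 proteins together form calprotectin, a major protein of neutrophils. S100a4 marks several mesenchymal and myeloid cells, and S100a10 and S100a11 bind annexins at membranes.

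The files place 8 members on rat chromosome 2 in build rn6. S100a1 (ENSRNOG00000012410) lies at chr2:189900667-189903219 on the minus strand, and S100a13 (ENSRNOG00000012393) starts 2802 bases after its end, at chr2:189906022-189912516 on the plus strand. S100a4 (ENSRNOG00000011821, chr2:189997129-189999604) and S100a6 (ENSRNOG00000011647, chr2:190007216-190008511) are both on the plus strand, 7611 bases apart. S100a8 (ENSRNOG00000011557, chr2:190073815-190074354, plus strand) and S100a9 (ENSRNOG00000011483, chr2:190097554-190100276, minus strand) follow. S100a11 (ENSRNOG00000010105, chr2:193866951-193868502, plus strand) and S100a10 (ENSRNOG00000023226, chr2:193892589-193901236, plus strand) form a separate group 3766674 bases further on. S100b (ENSRNOG00000001295) is at chr20:13130636-13142856 on the minus strand. No member overlaps another gene of the table. RefSeq also lists pseudogenes or near copies of S100a11 and S100a10, so the counts of these 2 genes, which come from uniquely mapped reads, are uncertain by whatever share of reads fits a copy as well.

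RefSeq promoter windows, 250 bases before to 50 bases after the start of the gene, were matched for 6 members, S100a4, S100a6, S100a9, S100a11, S100a13 and S100b. They are shown for S100a4 and S100a9, which met the limits on both fold and adjusted p in at least 1 comparison, and for S100a11 and S100b, the most abundant members. The sequences are from build GRCr8, at chr2:178388279-178388578 (plus strand) for S100a4, chr2:178490573-178490872 (minus strand) for S100a9, chr2:181874882-181875181 (plus strand) for S100a11 and chr20:12381032-12381331 (minus strand) for S100b. Each is written 5′ to 3′ along the gene, and capitals mark matches, on either strand, to 6 motifs. The motifs are the TATA box spelled TATAAA, the CCAAT box spelled CCAAT, the GC box spelled GGGCGG, the AP-1 motif spelled TGANTCA, the C/EBP motif spelled TTGCNNAA and the ETS/PU.1 motif spelled GAGGAAGT.
S100a4: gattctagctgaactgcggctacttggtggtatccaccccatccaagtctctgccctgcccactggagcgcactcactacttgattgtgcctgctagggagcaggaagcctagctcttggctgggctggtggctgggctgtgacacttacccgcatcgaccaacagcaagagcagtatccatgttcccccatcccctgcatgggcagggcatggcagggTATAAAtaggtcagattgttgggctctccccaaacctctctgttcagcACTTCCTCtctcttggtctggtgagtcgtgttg
S100a9: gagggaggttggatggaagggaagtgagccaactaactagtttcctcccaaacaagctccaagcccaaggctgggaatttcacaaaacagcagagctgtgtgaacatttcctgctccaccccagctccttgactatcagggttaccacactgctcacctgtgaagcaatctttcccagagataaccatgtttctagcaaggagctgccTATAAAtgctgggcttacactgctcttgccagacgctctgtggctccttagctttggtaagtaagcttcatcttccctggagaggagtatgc
S100a11: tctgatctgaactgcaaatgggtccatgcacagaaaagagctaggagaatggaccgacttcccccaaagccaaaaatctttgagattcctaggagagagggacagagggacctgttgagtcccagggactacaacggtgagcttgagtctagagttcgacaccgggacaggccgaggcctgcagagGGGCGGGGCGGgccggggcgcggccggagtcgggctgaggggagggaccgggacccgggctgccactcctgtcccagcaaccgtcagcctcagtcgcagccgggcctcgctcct
S100b: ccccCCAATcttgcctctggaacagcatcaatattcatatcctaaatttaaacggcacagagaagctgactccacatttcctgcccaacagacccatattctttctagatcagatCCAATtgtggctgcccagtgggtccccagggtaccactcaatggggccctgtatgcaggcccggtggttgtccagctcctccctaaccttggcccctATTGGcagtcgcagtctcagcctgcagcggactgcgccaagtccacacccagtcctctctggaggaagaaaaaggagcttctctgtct

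S100a4 and S100a9 each held a TATAAA, which began 31 bases before the start in S100a4 and 42 bases before it in S100a9. This motif was held by 14.2% of all 33469 promoters. S100a4 also held the reverse complement of GAGGAAGT after its start, a match found in 2.42% of promoters. S100a11 held GGGCGG at 2 places that overlap, 64 and 59 bases before the start (33.1% of promoters hold it at least once). S100b held 3 CCAAT boxes, at 246, 135 and 38 bases before the start (37.5% of promoters hold the motif at least once). None of the 4 sequences held TGANTCA or TTGCNNAA, which occur in 7.33% and 10.6% of promoters. These matches describe letters only, and binding was not tested.

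The libraries held 31716457 to 65759306 counted reads in Cmpd 1, 54649679 to 74784655 in Food matched, 56743417 to 70206686 in Obese and 50604956 to 68048796 in Lean animals. The tissue label was borne out by the adipocyte genes, and Adipoq, the adiponectin gene, averaged 4571 CPM (counts scaled by library size) in Cmpd 1, 3306 in Food matched, 3986 in Obese and 6730 in Lean animals. Lean animals 1 and 2 stood apart by genes of skeletal muscle. Their summed level over 7 muscle genes was 2902 and 5029 CPM, against 18.8 to 21.2 CPM in the other Lean animals, and log2 fold changes against Lean animals are given with and without these 2.

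Per unit of gene length the S100 genes covered a wide range in iWAT. In TPM (counts scaled by gene length and then by library), averaged over the groups, S100a11 was at 2994, S100b at 1831, S100a10 at 1077, S100a6 at 1016 and S100a4 at 450. S100a13 and S100a1 followed at 87.6 and 85.6 TPM, and S100a9 and S100a8 were far lower at 4.55 and 3.05 TPM. S100a11 ranked between 23 and 41, and S100b between 37 and 73, among the 18621 protein-coding genes of each library. The gene lengths used for S100a11 (297 bases) and S100a1 (285 bases) are multiples of 3 and short, and a coding length in place of a transcript length would raise their TPM. By CPM, which ignores length, S100b came first and S100a11 second, and S100b alone made up 0.112% to 0.219% of all counted reads.

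Neighbours in the TPM order were not all separated. S100a4 lay above S100a13, and S100a1 above S100a9, with no overlap between the ranges of 20 libraries. S100a11 exceeded S100b in 19 of 20 libraries. S100a10 exceeded S100a6 in 17 and S100a9 exceeded S100a8 in 16, with ranges that overlapped in every group. Both genes of a pair come from the same libraries, so this overlap does not decide their order, which was not tested. In TPM, the order of S100a13 and S100a1 went with the group. S100a13 was above S100a1 in all 15 Cmpd 1, Food matched and Obese libraries, whereas in all 5 Lean libraries S100a1, at 129 to 186 TPM, was above S100a13, at 95.5 to 105 TPM. This switch depends on the gene lengths used. By CPM S100a13 was above S100a1 in Lean animals 2 to 5 as well, at 28.0 to 28.6 against 21.7 to 25.6 CPM. Only in Lean animal 1 was S100a1 higher, at 31.9 against 30.5 CPM.

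**Figure D1:**
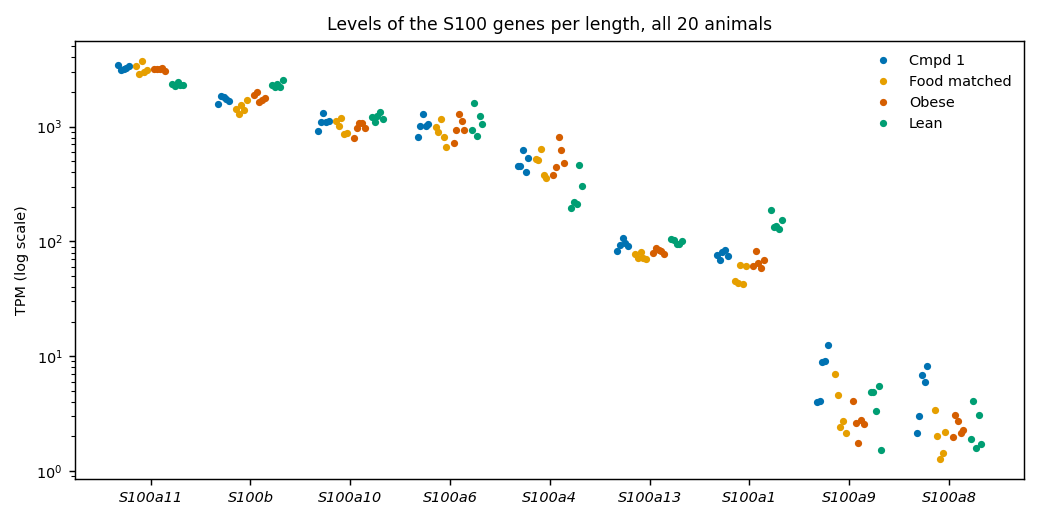
Level of each S100 gene in TPM (log scale) in 20 animals, 1 point per animal, coloured by group, with genes ordered by their mean. S100a11 and S100b lie at or above 1290 TPM in every library, and S100a9 and S100a8 at or under 12.5 TPM.

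The comparison of Obese with Lean animals asks which changes go with the disease. S100a1 was 2.19-fold lower and S100a4 1.96-fold higher in Obese animals, and these were the 2 members of 9 that were called (fold over 1.5 and edgeR adjusted p under 0.05). With this rule 22.3% of all genes tested were called, 11.3% as higher and 11% as lower, so the members' share was at the background. At an adjusted p under 0.05 with no limit on fold, 2 members were higher (S100a4, S100a11) and 4 were lower (S100a1, S100a10, S100a13, S100b). That is 6 of 9 members, against 48.2% of all genes, 23.7% higher and 24.5% lower. The members' median log2 fold change was -0.27, against -0.01 over all genes tested.

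S100a1, best known as a regulator of calcium cycling in heart and skeletal muscle, gave the largest difference. It was at 10.7, 13.9, 10.8, 10.1 and 11.8 CPM in Obese animals 1 to 5, against 31.9, 21.7, 23.7, 22.3 and 25.6 CPM in Lean animals 1 to 5. Every Obese animal was below every Lean animal. The means were 11.4 ± 1.49 CPM in Obese and 25.0 ± 4.11 CPM in Lean animals (SD, n = 5 each), a log2 fold change of -1.13 (standard error 0.13, edgeR adjusted p = 3.1e-07). Without Lean animals 1 and 2 it was -1.06 (edgeR adjusted p = 1.6e-06), and the Lean animals low in muscle transcripts were all above 22 CPM. The part of muscle transcripts in the result was not tested. In a bulk tissue sample, fewer cells of a type and less RNA per cell cannot be told apart, here and in all results that follow.

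S100a4, also called fibroblast-specific protein, was at 152, 173, 307, 244 and 189 CPM in Obese animals, against 76.8, 82.4, 85.5, 185 and 115 CPM in Lean animals. The groups overlapped, since Lean animal 4 was above Obese animals 1 and 2. The log2 fold change was 0.97 (standard error 0.23, edgeR adjusted p = 0.0015). It was 0.73 (edgeR adjusted p = 0.022) without Lean animals 1 and 2, and 0.80 to 1.25 when any single animal was left out. Genes of macrophages moved with S100a4, and their part in the result was not tested. Of 8 macrophage genes 5 were called higher and 1 lower, and their summed level was 3169 to 4637 CPM in Obese, against 1407 to 1762 CPM in Lean animals.

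Of the abundant members, S100a11, which binds annexin A1, was higher and S100b lower in Obese animals, both by less than 1.5-fold. S100a11 was at 576, 561, 548, 576 and 543 CPM in Obese animals, against 422, 382, 447, 411 and 403 CPM in Lean animals (log2 fold change 0.44, standard error 0.07, edgeR adjusted p = 1.7e-05). S100b was at 1720, 1758, 1417, 1512 and 1575 CPM in Obese animals, against 2035, 1884, 2144, 1996 and 2215 CPM in Lean animals (log2 fold change -0.36, standard error 0.08, edgeR adjusted p = 8.0e-04). Neither gene overlapped between the groups. With Lean animals 1 and 2 left out the log2 fold changes were 0.42 for S100a11 (edgeR adjusted p = 2.8e-04) and -0.41 for S100b (edgeR adjusted p = 0.0012). Of the 9 members 4 did not overlap (S100a1, S100a11, S100a13 and S100b), against 33.6% of all genes.

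S100b is best known from glia and is also made by adipocytes, so genes of both cell types are given beside it. Of 6 measured genes of Schwann cells, the glia of peripheral nerves, 4 were called lower and 0 higher in Obese animals. Their median log2 fold change was -1.79. Most of their summed level, 118 to 143 CPM in Obese and 126 to 225 CPM in Lean animals, was Mbp, a myelin gene that was not called (log2 fold change -0.03). Without Mbp the sum over the other 5 genes was 17.9 to 28.4 CPM in Obese and 39.0 to 71.7 CPM in Lean animals, with no overlap. Lean animal 3, the lowest Lean animal in this sum, had 2144 CPM of S100b, the second highest of the 20 libraries, and Lean animal 4, the highest in the sum, was also the Lean animal with the most S100a4. Of 7 adipocyte genes 3 were called lower and 1 higher, with a median log2 fold change of -0.51. Among the other lists, all 7 muscle genes, 4 of 6 fibroblast and progenitor genes, 3 of 5 red blood cell genes, all 4 tested keratinocyte and gland genes, 1 of 3 endothelial genes and 1 of 5 B cell and lymph node genes (Ccl21, a chemokine of lymph node stroma) were called lower, and 1 fibroblast and 2 of 4 T cell genes higher. Lean animal 2 stood apart in the keratinocyte and gland list, with a sum of 163 CPM against 12.7 to 34.5 CPM in the other Lean animals. The calls of all 7 muscle genes, of Lep in the adipocyte list, Dcn in the fibroblast list and Krt18 in the keratinocyte list were lost without Lean animals 1 and 2, and the other calls of these lists and of the macrophage and Schwann cell lists stayed. In the neutrophil list, 2 of 9 tested genes were called higher (Csf3r and Ltf) and 2 lower (Mpo and Cxcr2). All 4 calls stayed without Lean animals 1 and 2. The part of these lists in the results was not tested.

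S100a13, which takes part in the release of fibroblast growth factor 1, was at 22.6 to 25.0 CPM in Obese and 28.0 to 30.5 CPM in Lean animals (log2 fold change -0.27, edgeR adjusted p = 4.5e-04). S100a10, the partner of annexin A2, was at 280 to 374 CPM in Obese and 360 to 466 CPM in Lean animals (log2 fold change -0.32, edgeR adjusted p = 0.012), and these groups overlapped. S100a6, or calcyclin, did not pass (log2 fold change -0.17, 95% interval -0.52 to 0.17, edgeR adjusted p = 0.41). S100a8 and S100a9 did not pass either, at log2 fold changes of -0.02 (-0.75 to 0.70) and -0.52 (-1.32 to 0.27). The interval of S100a8 holds 1.5-fold differences in both directions, and that of S100a9 a level 1.5-fold lower in Obese animals. Without Lean animals 1 and 2, S100a13 (-0.25, edgeR adjusted p = 0.0041) and S100a10 (-0.37, edgeR adjusted p = 0.011) still passed, and S100a6, S100a8 and S100a9 had log2 fold changes of -0.08, 0.17 and -0.32 (edgeR adjusted p 0.76, 0.77 and 0.60).

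**Figure D2:**
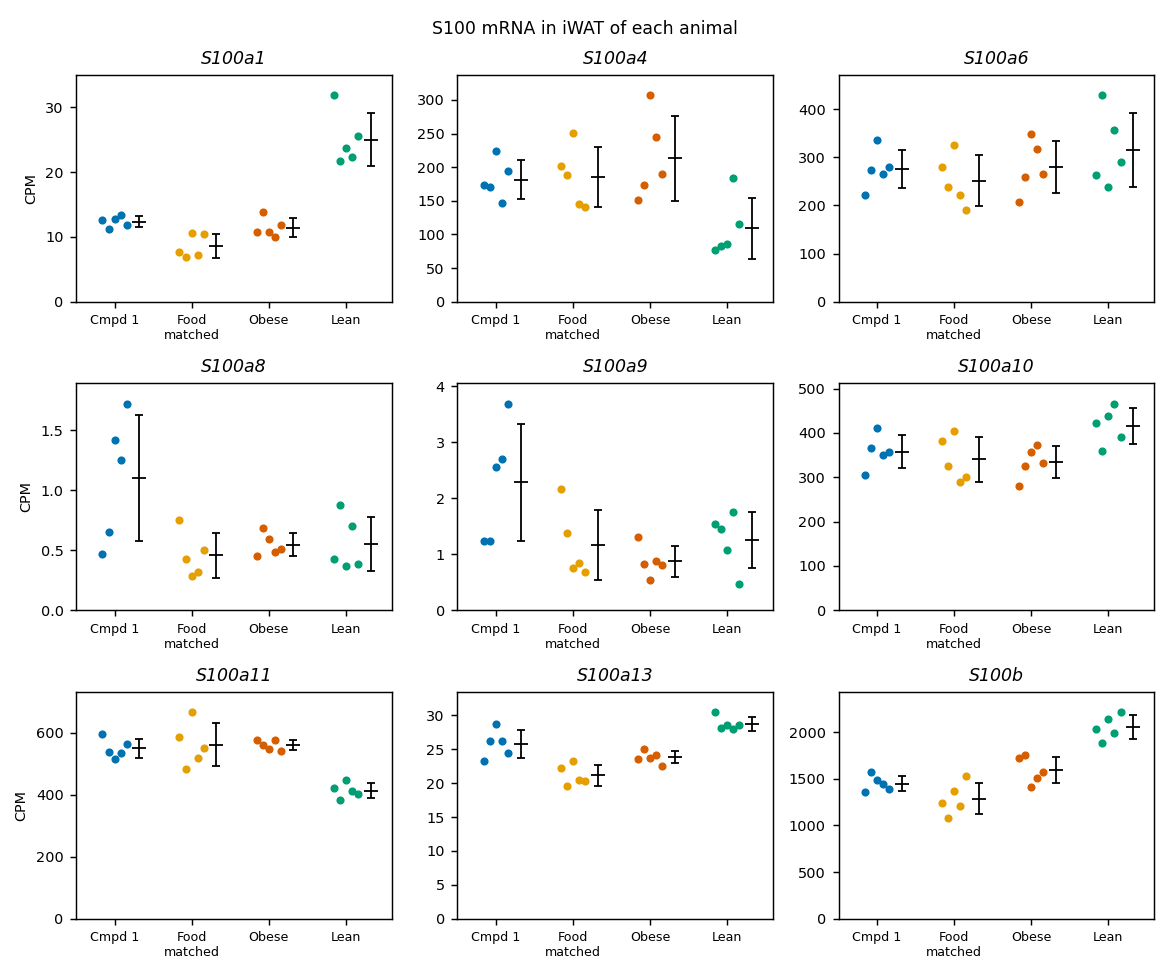
CPM of the 9 S100 genes in each animal (points) of the Cmpd 1, Food matched, Obese and Lean groups, with the mean and SD of 5 animals beside the points and axes that start at 0. S100a1 averages 12.4, 8.58 and 11.4 CPM in Cmpd 1, Food matched and Obese animals and 25.0 CPM in Lean animals, and S100a8 is above 1 CPM in Cmpd 1 animals 3, 4 and 5 and in no other animal.

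The comparison of Cmpd 1 with Food matched animals asks what the compound changed beyond food intake. S100a8 was 2.41-fold higher in Cmpd 1 animals (95% interval 1.45 to 4.00) and was the 1 member called, against 6.19% of all genes tested and 1.54% called higher. S100a1 and S100a13 passed the adjusted p with folds under 1.5, both higher, so that 3 of 9 members passed, all higher, against 22.8% of all genes and 11.4% higher. The members' median log2 fold change was 0.17, against 0.01 over all genes.

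S100a8 was at 0.469, 0.653, 1.42, 1.26 and 1.72 CPM in Cmpd 1 animals 1 to 5, against 0.755, 0.427, 0.288, 0.314 and 0.500 CPM in Food matched animals 1 to 5. These levels rest on 31 to 98 reads in Cmpd 1 and 17 to 41 reads in Food matched libraries. Cmpd 1 animals 3, 4 and 5 were above every Food matched animal, while Cmpd 1 animals 1 and 2 lay within the Food matched range. The log2 fold change was 1.27 (standard error 0.35, edgeR adjusted p = 0.012), and it stayed called when any single animal was left out, at 1.04 to 1.52 (edgeR adjusted p 0.0034 to 0.047).

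S100a9 followed the same animals. It was at 1.24, 1.24, 2.56, 2.70 and 3.69 CPM in Cmpd 1 animals, against 2.17, 1.37, 0.762, 0.834 and 0.685 CPM in Food matched animals, and again animals 3, 4 and 5 of the Cmpd 1 group were above all Food matched animals. The log2 fold change was 0.97 (standard error 0.38, 95% interval 0.18 to 1.76), and the edgeR adjusted p of 0.071 did not pass. DESeq2 gave 0.96 with an adjusted p of 0.039. The ratio of S100a9 to S100a8 was 1.81 to 2.65 in Cmpd 1 animals, within the 0.912 to 3.59 of all 20 libraries. Over these libraries the log2 CPM of both genes had a Pearson r of 0.75, and 0.67 for deviations from the group means, a description that includes the animals of all groups.

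Genes of neutrophils are given beside S100a8 and S100a9, and their part in the result was not tested. Of 9 tested neutrophil genes 0 were called by edgeR between Cmpd 1 and Food matched animals. The sum over the list was 120 to 153 CPM in Cmpd 1, 92.5 to 138 CPM in Food matched, 124 to 158 CPM in Obese and 484 to 582 CPM in Lean animals, nearly all of it Mpo, the myeloperoxidase gene. Without Mpo the sum over the other 9 genes was 9.92 to 12.4 CPM in Cmpd 1, 9.91 to 12.4 CPM in Food matched, 10.5 to 14.2 CPM in Obese and 15.7 to 22.7 CPM in Lean animals. The granule genes of the list differed widely in level, since Mpo was at 80.9 to 559 CPM, while Elane (neutrophil elastase) was at or under 0.148 CPM and Camp at or under 0.184 CPM in every library. Ngp, a granule gene of the mouse neutrophil, was at 0.469, 0.318, 0.208, 0.459 and 0.158 CPM in Cmpd 1 animals 1 to 5 and at 0.296 CPM or less in Food matched animals (log2 fold change 1.48, edgeR adjusted p = 0.17), and Cmpd 1 animal 1, the highest in Ngp, was the lowest of its group in S100a8. Mmp8, the neutrophil collagenase, was at 0.212, 0.0838, 0.375, 0.398 and 0.773 CPM in Cmpd 1 animals, highest in the same animals 3, 4 and 5, and at 0.148 to 0.387 CPM in Food matched animals (log2 fold change 0.65, edgeR adjusted p = 0.40).

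Depth moved in part with S100a8 and S100a9 within the Cmpd 1 group. Animals 3 and 4, both high in these genes, had the smallest libraries of the series, at 46241479 and 31716457 reads, while animal 5, the highest, had 55570849 reads. The part of depth in the result was not tested. The red blood cell genes summed to 1427 CPM in Cmpd 1 animal 5, to 445 to 583 CPM in Cmpd 1 animals 1 to 4 and to 458 to 1294 CPM in Food matched animals, and their part in the result was not tested.

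**Figure D3:**
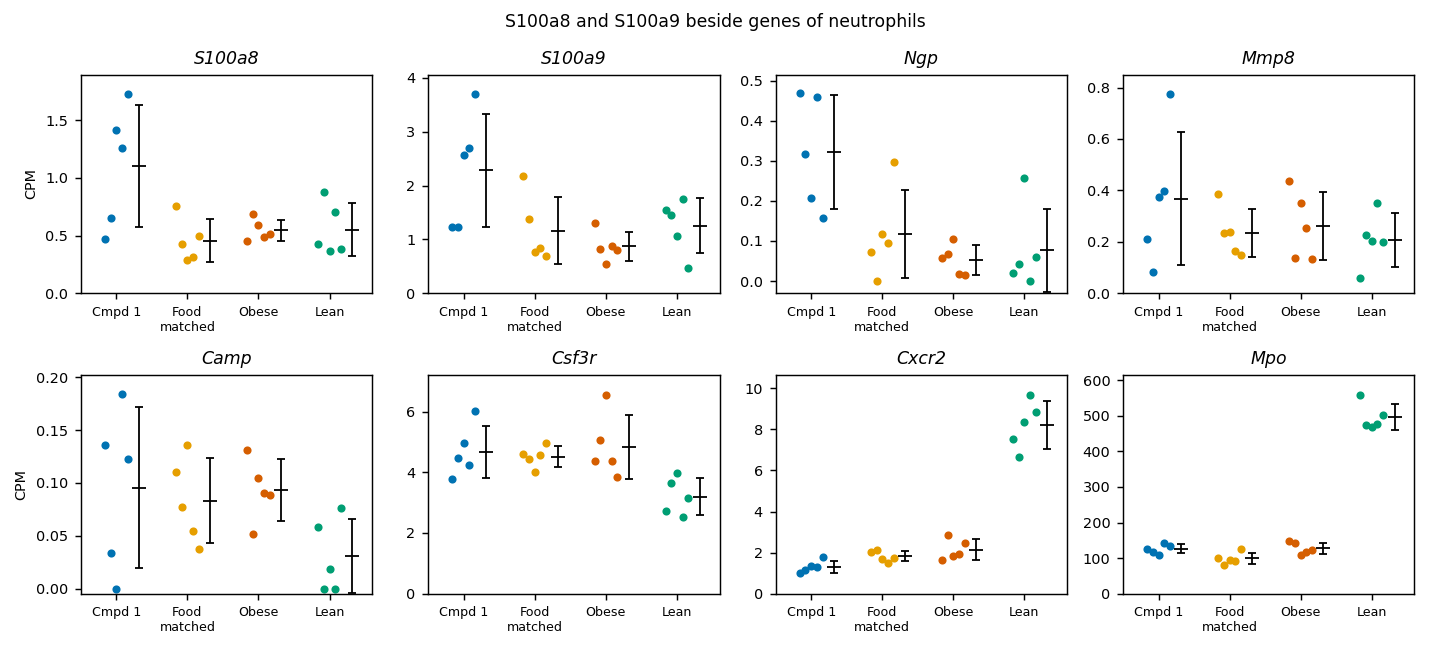
CPM of S100a8, S100a9 and 6 genes of neutrophils in each animal (points) of the Cmpd 1, Food matched, Obese and Lean groups, with the mean and SD of 5 animals beside the points. S100a8 and S100a9 are highest in Cmpd 1 animals 3, 4 and 5. Mpo averages 127 CPM in Cmpd 1 and 497 CPM in Lean animals and Cxcr2 1.32 CPM in Cmpd 1 and 8.21 CPM in Lean animals. Ngp, Camp, Mmp8 and Csf3r went the other way, with log2 fold changes over Lean animals of 2.07, 1.55, 0.80 and 0.55. Of these only Ngp was called.

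S100a1 was at 12.6, 11.3, 12.7, 13.4 and 11.8 CPM in Cmpd 1 animals, against 7.71, 6.95, 10.6, 7.15 and 10.5 CPM in Food matched animals. All Cmpd 1 animals were above all Food matched animals, and S100a1 was the 1 member whose groups did not overlap, against 14.9% of all genes. The log2 fold change was 0.53 (standard error 0.13, edgeR adjusted p = 0.0052), a 1.44-fold difference that stayed under the fold limit in 8 of the 10 fits with an animal left out. S100a13 was at 23.2, 26.3, 28.7, 26.2 and 24.5 CPM in Cmpd 1 animals, against 22.2, 19.5, 23.3, 20.4 and 20.3 CPM in Food matched animals (log2 fold change 0.28, edgeR adjusted p = 0.0013). Only Food matched animal 3 reached into the Cmpd 1 range.

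The other 5 members did not pass between Cmpd 1 and Food matched animals. S100b, at 1364 to 1573 CPM in Cmpd 1 and 1082 to 1527 CPM in Food matched animals, had a log2 fold change of 0.17 (95% interval 0.00 to 0.34, edgeR adjusted p = 0.14). S100a4 averaged 182 ± 29.0 CPM in Cmpd 1 and 185 ± 45.1 CPM in Food matched animals (SD, n = 5 each), and its interval of -0.50 to 0.44 spans changes of up to 1.4-fold. Macrophage genes differed between these same groups, and 5 of 8 were called lower in Cmpd 1 animals, with sums of 2383 to 3392 CPM in Cmpd 1 and 3477 to 6416 CPM in Food matched animals. S100a11 had a log2 fold change of -0.03 (-0.17 to 0.11). S100a6 and S100a10 had log2 fold changes of 0.13 (-0.21 to 0.48) and 0.07 (-0.13 to 0.28).

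Cmpd 1 animals were also set against Obese animals fed freely. S100a9 was the 1 member of 9 called, against 3.53% of all genes and 0.731% called higher. It was at 1.24 to 3.69 CPM in Cmpd 1 animals, against 1.30, 0.821, 0.542, 0.885 and 0.808 CPM in Obese animals, and Obese animal 1 lay above Cmpd 1 animals 1 and 2. The log2 fold change was 1.38 (standard error 0.38, a 2.61-fold difference, edgeR adjusted p = 0.021). The call was lost, at edgeR adjusted p of 0.056, 0.055 and 0.072, without Obese animal 3, Cmpd 1 animal 4 or Cmpd 1 animal 5. S100a8 had a log2 fold change of 1.01 (standard error 0.35, edgeR adjusted p = 0.058), at 0.453 to 0.684 CPM in Obese animals. This comparison shares the Cmpd 1 animals with the one before, so the values stand side by side and are not independent.

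Of the neutrophil list 2 genes were called between Cmpd 1 and Obese animals, in opposite directions. Ngp was higher (log2 fold change 2.57, edgeR adjusted p = 0.039), at 0.158 to 0.469 CPM in Cmpd 1 and 0.0147 to 0.105 CPM in Obese animals, and Cxcr2, a chemokine receptor of neutrophils, was lower (log2 fold change -0.70, edgeR adjusted p = 0.011). Their part in the S100a9 result was not tested. The other 7 members had log2 fold changes between -0.23 (S100a4) and 0.11 (S100a1 and S100a13), and the smallest edgeR adjusted p among them was 0.19 (S100a13).

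Between Food matched and Obese animals 0 of 9 members were called by edgeR, limma-voom or DESeq2, and 0% of all genes were called by edgeR, with 0.065 as the smallest adjusted p of any gene. Without adjustment, 3 members had an edgeR p under 0.05, against 10.7% of all genes, and each was lower in Food matched animals. S100b averaged 1288 ± 169 CPM in Food matched and 1597 ± 143 CPM in Obese animals (SD, n = 5 each), with a log2 fold change of -0.31 (edgeR adjusted p = 0.14). S100a1 had -0.42 (edgeR adjusted p = 0.20) and S100a13 -0.17 (edgeR adjusted p = 0.24). All 9 members overlapped between these groups, where 2.04% of all genes did not. DESeq2 gave S100b an adjusted p of 0.021 at a fold under 1.5. Food matched animal 5 decided the edgeR count over all genes, since without it 93 genes were called, 0 of them members. S100b then passed the adjusted p at a fold under 1.5 (log2 fold change -0.38, edgeR adjusted p = 0.019), and it did not pass without any other single animal. Food matched animal 5 also had a summed level of muscle genes of 80.5 CPM, against 6.22 to 9.84 CPM in the other Food matched animals. The part of these transcripts in the result was not tested.

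The distance of Cmpd 1 animals from Lean animals was measured in the same way. Of the 9 members 3 were called, S100a1 lower and S100a4 and S100a8 higher, against 16.6% of all genes (7.47% higher, 9.11% lower). S100a1 was at 11.3 to 13.4 CPM in Cmpd 1 and 21.7 to 31.9 CPM in Lean animals, with no overlap and a log2 fold change of -1.02 (standard error 0.13, edgeR adjusted p = 2.9e-06). S100a4 was at 174, 170, 223, 146 and 195 CPM in Cmpd 1 animals, with a log2 fold change over Lean animals of 0.74 (standard error 0.23, edgeR adjusted p = 0.014). Without Lean animals 1 and 2 it was 0.50 and no longer called (edgeR adjusted p = 0.13), while S100a1 stayed called at -0.95 (edgeR adjusted p = 1.6e-05).

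S100a8 was at 0.469 to 1.72 CPM in Cmpd 1 animals, against 0.431, 0.876, 0.369, 0.705 and 0.382 CPM in Lean animals (log2 fold change 0.98, standard error 0.35, edgeR adjusted p = 0.029). It stayed called in 4 of 10 fits with an animal left out, and without Lean animal 1, 3 or 5 or Cmpd 1 animal 3, 4 or 5 the edgeR adjusted p was 0.055 to 0.11. With both Lean animals 1 and 2 left out it was called at 1.17 (edgeR adjusted p = 0.031). Neutrophil genes called in this comparison were Ngp and Ltf, both higher, and Mpo, Cxcr2 and Lcn2, all lower. The calls of Ngp, Ltf and Lcn2 were lost without Lean animals 1 and 2. In all, 6 of 9 members passed the adjusted p alone, against 39% of all genes, and 3 did not overlap, against 24.6% of all genes. S100a11 (log2 fold change 0.41) and S100b (-0.50) passed the adjusted p with no overlap between the groups, and S100a13 (-0.16, edgeR adjusted p = 0.031) passed with an overlap. S100a9 (0.86, edgeR adjusted p = 0.079), S100a10 (-0.22, edgeR adjusted p = 0.092) and S100a6 (-0.20, edgeR adjusted p = 0.38) did not pass. Without Lean animals 1 and 2, S100a11 (0.39, edgeR adjusted p = 8.8e-04) and S100b (-0.55, edgeR adjusted p = 1.3e-04) passed and S100a13 did not (-0.14, edgeR adjusted p = 0.12), so that 4 members passed the adjusted p. S100a9, S100a10 and S100a6 then had 1.06, -0.27 and -0.10 (edgeR adjusted p 0.083, 0.070 and 0.71).

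**Figure D4:**
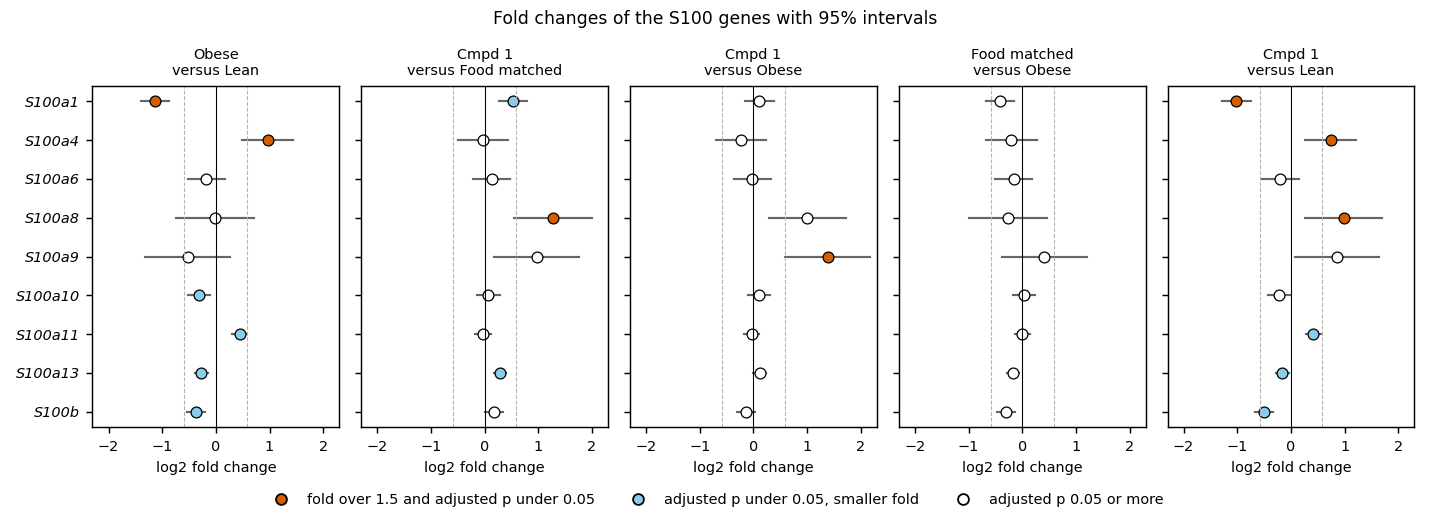
Log2 fold changes (first group over second) of the 9 S100 genes in 5 comparisons, points with 95% intervals, with dashed lines at a fold of 1.5 in either direction. Filled orange points are the called genes, S100a1 and S100a4 in Obese versus Lean, S100a8 in Cmpd 1 versus Food matched, S100a9 in Cmpd 1 versus Obese, and S100a1, S100a4 and S100a8 in Cmpd 1 versus Lean.

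Proteins that S100 proteins bind were read from a list of 20 partners and receptors, of which 19 were tested. In Obese versus Lean animals 1 was called lower and 0 higher, and in Cmpd 1 versus Lean animals 1 was called lower and 0 higher. Over all genes tested, 22.3% and 16.6% were called in these comparisons, so calls were not frequent in this list. In the other 3 comparisons 0 were called by edgeR, against 6.19% (Cmpd 1 versus Food matched), 3.53% (Cmpd 1 versus Obese) and 0% (Food matched versus Obese) of all genes. The gene called in Obese animals was Mcam, a cell adhesion receptor that S100A8 and S100A9 bind in human cells, at 638 CPM in Obese and 1028 CPM in Lean animals on average (log2 fold change -0.69, and -0.66 and still called without Lean animals 1 and 2). Mcam was at 748 CPM in Cmpd 1 and 575 CPM in Food matched animals, with no overlap, at a fold under 1.5 (log2 fold change 0.38, edgeR adjusted p = 5.6e-04).

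Anxa2, whose protein forms a complex with S100a10, moved opposite to it in Obese versus Lean animals. Anxa2 averaged 821 ± 59.5 CPM in Obese and 569 ± 56.0 CPM in Lean animals (log2 fold change 0.53, edgeR adjusted p = 1.4e-05), where S100a10 had -0.32. Between Cmpd 1 and Food matched animals Anxa2 had -0.26 (edgeR adjusted p = 0.020) and S100a10 0.07. Anxa1, the partner of S100a11, also moved opposite to its partner in Obese animals, at 1207 CPM in Obese and 1722 CPM in Lean animals (log2 fold change -0.51, edgeR adjusted p = 9.8e-07), and it was the gene called lower in Cmpd 1 versus Lean animals (-0.61). Of the receptors, Ager averaged 6.18 CPM in Obese and 9.18 CPM in Lean animals (log2 fold change -0.57, edgeR adjusted p = 0.0013), and Tlr4 passed between Cmpd 1 and Food matched animals at a fold under 1.5 (-0.30, edgeR adjusted p = 0.0086). Without Lean animals 1 and 2 the log2 fold changes in Obese versus Lean animals were 0.45 for Anxa2, -0.52 for Anxa1 and -0.56 for Ager, each past the adjusted p, and Anxa1 stayed called in Cmpd 1 versus Lean animals (-0.61).

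Other S100 genes of the table were few. A rule on the symbol found 5 more, S100a3, S100a5, S100a16, S100g and S100z, of which 3 were tested and 0 were called by edgeR in any comparison. S100a16 was the most abundant of the 3 tested, at 64.9 ± 1.51 CPM in Cmpd 1, 54.4 ± 5.32 CPM in Food matched, 64.3 ± 2.90 CPM in Obese and 89.6 ± 4.79 CPM in Lean animals (SD, n = 5 each). Its log2 fold change was -0.48 in Obese versus Lean (edgeR adjusted p = 5.7e-07, and -0.43 without Lean animals 1 and 2) and 0.26 in Cmpd 1 versus Food matched animals (edgeR adjusted p = 0.0027). S100a3 and S100a5 averaged under 1 CPM in each group.

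For each member, the genes whose log2 CPM was most alike over the 20 libraries were listed by Pearson r, among genes with a mean of at least 1 CPM. The libraries share their groups, so r holds the group differences, and the r of deviations from group means is given in second place. S100a1 was most like Gcdh (0.98 and 0.80), S100a4 like Cd109 (0.95 and 0.91), S100a10 like Medag (0.92 and 0.87) and S100a11 like Zwint (0.96 and 0.83). S100a13 was most like Serpinb6 (0.95 and 0.80) and S100b like Cd302 (0.97 and 0.85). The likeness was lower for S100a6 with Ackr4 (0.77 and 0.74), S100a8 with Pygb (0.77 and 0.57) and S100a9 with Dlgap4 (0.80 and 0.64).

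Among the members themselves, S100a1 and S100b had an r of 0.91 over the libraries and 0.62 within groups, and S100a1 and S100a13, next to each other on chromosome 2, had 0.87 and 0.43. S100a4 and S100a6, 7611 bases apart, had 0.17 over the libraries and 0.65 within groups. S100a10 and S100a11, 24086 bases apart, had -0.43 and 0.35.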

How the data were processed

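iWAT RNA from 20 male ZSF1 rats, 5 per group by title label, was made into stranded mRNA libraries. For each Ensembl gene the authors deposited the number of reads that mapped uniquely (counts, not normalized), beside its position and length. The submitters' processing notes name STAR 2.5.2, featureCounts from Subread 1.5.1 and GRCh38, while the paper names rn6, which the rat positions follow. Whether counting used strand is not given in the sources used here. Titles were followed where a phenotype tag calls Food matched rats lean and their titles call them obese.

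Counts were fitted with edgeR 4.0.16 (R 4.3.3) by quasi-likelihood in 1 model of 4 groups with TMM scaling. Genes with 0 reads in 10 or more of 20 libraries were left out (14892 of 32545). P-values were adjusted by Benjamini-Hochberg over 17653 genes, and genes with a fold over 1.5 and an adjusted p under 0.05 were called. Intervals are 95% intervals of the fit. CPM use TMM-scaled library sizes, log2 CPM a prior count of 2, and TPM the deposited lengths. limma 3.58.1 (voom), DESeq2 1.42.0, other filters and scalings, a replicate block and leaving out animals were tried as alternatives. The values without Lean animals 1 and 2 for marker lists, partners and other S100 genes were added after seeing the data. Nothing beyond the animal numbers says how tissue was processed in batches.

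All 9 members were named in every comparison, other S100 genes by a rule on the symbol, partners where called or where a member's known partner was described, and for likeness the genes with the highest r. The members and lists, cell type markers included, were chosen with earlier results of these data known. Foxd3, Myh4 and Pecam1 from the marker lists were not analysed here, and 1 other marker gene is not reported here.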

Additional observations from a re-analysis of the deposited data

Results flagged for a closer look

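S100a13 in Lean animal 1 was at 30.5 CPM, far from the other Lean animals, of which the nearest was at 28.6 CPM. Its gap to the nearest animal was 0.764 of the range of the group, above the critical value of 0.71. Of 36 sets of 5 animals tested (9 genes in 4 groups) this was the 1 that passed, and chance flags about 1 in 20. Lean animal 1 is 1 of the 2 Lean animals high in muscle transcripts, and Lean animal 2, the other, was at 28.1 CPM. Without both, the log2 fold change of S100a13 in Obese versus Lean animals was -0.25 (edgeR adjusted p = 0.0041).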

How the results depend on the processing

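With no limit on fold, 6 members were called in Obese versus Lean, 3 in Cmpd 1 versus Food matched and 6 in Cmpd 1 versus Lean animals. Over all genes 48.2%, 22.8% and 39% were called in this way. DESeq2 called 2 members (S100a8 and S100a9) in Cmpd 1 versus Food matched animals and the same 2 in Cmpd 1 versus Obese animals, where library size alone and a fit of only the groups compared also called 2. Among all genes DESeq2 called 1188 and 714 in these 2 comparisons, against 1092 and 623 in the main fit. In Cmpd 1 versus Obese animals library size alone called 626 genes and the fit of only the groups compared 749. Leaving out 1 animal gave 2 to 2 called members in Obese versus Lean, 1 to 2 in Cmpd 1 versus Food matched, 0 to 2 in Cmpd 1 versus Obese, 0 to 0 in Food matched versus Obese and 2 to 4 in Cmpd 1 versus Lean animals. Among all genes these fits called 3670 to 4035, 803 to 1289, 365 to 751, 0 to 93 and 2586 to 3000, in the same order. S100a1 joined S100a8 in 2 of the fits of Cmpd 1 with Food matched animals and S100a9 in 3. The S100a8 call in Cmpd 1 versus Lean animals was lost in the fit of the 2 groups alone and under limma-voom (adjusted p 0.071 and 0.077). Over all genes, Food matched versus Obese gave 0 calls by edgeR, 2 with the replicate block, 93 without Food matched animal 5, 0 without any other single animal, 10 by limma-voom and 69 by DESeq2.

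Signs turned only for log2 fold changes near 0 that were never called. S100a8 in Obese versus Lean became 0.021 under limma-voom and 0.17 without Lean animals 1 and 2, and -0.13 to 0.21 without any 1 animal. With library size alone, S100a4 and S100a11 in Cmpd 1 versus Food matched became 0.0089 and 0.0070 and S100a6 and S100a11 in Cmpd 1 versus Obese 0.036 and 0.028. S100a11 in Food matched versus Obese became -0.0030 under limma-voom. Ranges without any 1 animal crossed 0 for S100a4 (-0.11 to 0.11) and S100a11 (-0.080 to 0.038) in Cmpd 1 versus Food matched, for S100a6 (-0.11 to 0.072) in Cmpd 1 versus Obese, and for S100a10 (-0.042 to 0.081) and S100a11 (-0.066 to 0.052) in Food matched versus Obese animals. The causes were not tested.

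Animal numbers did not pair the samples: deviations of same-numbered animals had correlations of -0.10 to 0.15 (30 pairs, 1 over 0.1), and 3 of 20 libraries correlated best with their own number. With the replicate number as a block, 2 members were called in Obese versus Lean, 1 in Cmpd 1 versus Food matched, 1 in Cmpd 1 versus Obese, 0 in Food matched versus Obese and 2 in Cmpd 1 versus Lean animals, where S100a8 had 0.98 (adjusted p = 0.055), and S100a11 in Food matched versus Obese had -0.0031. Among all genes the block gave 3784, 1051, 582, 2 and 2785 calls, in the same order.

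S100a8 and S100a9 rest on 17 to 98 and 31 to 210 reads per library, and depth limits the precision of both.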

Other observations

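S100g, the vitamin D-dependent calbindin of the intestine, had 830 reads (12.7 CPM) in Lean animal 5 and at most 3 reads in any other library, and was left out of the test for lack of reads. S100vp, a rat S100 gene outside the rule on the symbol and chosen after its values were seen, had 498 reads (8.99 CPM) in Obese animal 4, 124 reads (2.08 CPM) in Lean animal 4 and at most 14 reads in the other libraries.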
